A study of Mus musculus with 6 samples.

Results

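Guanylate-binding proteins (GBPs) are large GTPases made by a gene family of the mouse, and 9 of its genes, Gbp2 to Gbp10, are described here. They were chosen by name, and all 9 were among the 20097 genes with values. RNA was measured by poly-A sequencing of c-Kit+ bone marrow cells, a fraction that carries the receptor encoded by Kit and is rich in blood stem and progenitor cells. There were 3 libraries of genotype WT and 3 of genotype Runx1 KO. Runx1 encodes a transcription factor of blood development. The labels give no age, sex, strain or agent, and do not say by which allele, in which cells or when Runx1 was disrupted. They also do not say that the 3 libraries of a group came from separate animals, so p-values measure only the spread between these libraries, which may be technical.

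GBPs are known as products of interferon-stimulated genes. Interferons bind their receptors and act through JAK kinases and the transcription factors these activate, and interferon-gamma also through the transcription factor IRF1, which together switch on GBP genes through short DNA elements. Inside a cell, GBPs assemble on the membranes of bacteria and parasite-containing vacuoles together with a second GTPase family, the immunity-related GTPases (IRGs), and they promote inflammasome signalling. In the mouse the family lies in clusters on chromosomes 3 and 5.

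Values are normalised reads, that is, a gene's reads divided by the size factor of its library. Each library held between 23297526 and 26793380 reads. Runx1 itself had 3031, 2799 and 3497 normalised reads in the WT libraries and 6648, 6720 and 5830 in those labelled Runx1 KO, so it was not lower under that label (log2 change 1.04, limma adjusted p 0.00163). A value for the whole gene does not tell if part of its transcript was lost. Directions below therefore run from the libraries labelled WT to the libraries labelled Runx1 KO. Kit had 7979, 8455 and 8471 normalised reads in WT and 11507, 13684 and 12756 in the libraries labelled Runx1 KO. It was itself called higher (log2 change 0.60, limma adjusted p 0.00346), and the groups did not overlap. With Kit, 7 of 8 progenitor markers rose and 0 fell (0 at an unadjusted p under 0.05 and 0 in edgeR or DESeq2). Over all 15410 genes tested, 10.6% were called higher and 11.3% lower at a limma adjusted p under 0.05. These are 1631 and 1739 genes, and scaling by library totals gave 2383 and 1372.

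Most Gbp genes rose together, as described further on, and the sequences upstream of those with an entry in the RefSeq promoter table are shown first. The table, on GRCm38.p6, held Gbp2, Gbp3, Gbp5 and Gbp7 of the members, and Gbp2b, a further family gene. Gbp4, Gbp6, Gbp8, Gbp9 and Gbp10 had no entry. Windows of 250 bases before the start were searched on both strands for the core of the interferon-stimulated response element, GAAA and GAAA with any 2 bases (NN) between them, and for TTCNNNGAA, the gamma-activated site of interferon-gamma signalling. The first was present in all 5 of these genes, in 1 of the 2 windows listed for Gbp3, against 2.97% of 32817 promoter windows. The following lines give 30 bases around the first match on the coding strand. Only the letters of that match are in capitals, here read as the reverse complement, TTTC and TTTC around 2 bases.
Gbp5: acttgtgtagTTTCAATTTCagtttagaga
Gbp7: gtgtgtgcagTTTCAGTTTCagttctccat
Gbp3: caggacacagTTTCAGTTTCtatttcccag
Gbp2b: gtacttctaaTTTCACTTTCttctttatca
Gbp2: actcttttagTTTCACTTTCactgtcttaa
Gbp7 and Gbp3 had the same 10 letters, and so had Gbp2b and Gbp2, which are neighbours. The match began 165 bases before the RefSeq start in Gbp5, 53 in Gbp7, 45 in Gbp3, 137 in Gbp2b and 59 in Gbp2. In Gbp2 it lies inside the first exon that GENCODE M21 annotates. In Gbp5 the whole window lies inside the gene as GENCODE M21 annotates it. That gene starts at chr3:142493978, whereas the window starts at chr3:142496684.

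The longer stretches of the genes on chromosome 3 show how the elements are placed. Both the response element core and gamma-activated sites are in capitals, and each stretch stops where a GENCODE exon begins or at the RefSeq start. All lie on the plus strand of GRCm38, at chr3:142496684-142496899 for Gbp5, chr3:142530086-142530335 for Gbp7, chr3:142559794-142560025 for Gbp3 and chr3:142594597-142594846 for Gbp2b.
Gbp5: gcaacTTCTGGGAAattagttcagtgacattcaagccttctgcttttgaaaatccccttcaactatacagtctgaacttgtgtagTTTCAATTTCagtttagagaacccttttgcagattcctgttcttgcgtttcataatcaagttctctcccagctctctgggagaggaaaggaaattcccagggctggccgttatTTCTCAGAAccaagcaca
Gbp7: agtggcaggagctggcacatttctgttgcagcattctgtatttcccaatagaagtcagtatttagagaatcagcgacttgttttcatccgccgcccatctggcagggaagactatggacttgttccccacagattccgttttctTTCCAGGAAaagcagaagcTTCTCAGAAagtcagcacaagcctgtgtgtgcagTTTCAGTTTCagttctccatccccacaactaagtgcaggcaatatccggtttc
Gbp3: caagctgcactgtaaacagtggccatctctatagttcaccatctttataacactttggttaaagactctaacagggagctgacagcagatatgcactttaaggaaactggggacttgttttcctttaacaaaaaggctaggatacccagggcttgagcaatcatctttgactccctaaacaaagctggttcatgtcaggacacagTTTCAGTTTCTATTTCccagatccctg
Gbp2b: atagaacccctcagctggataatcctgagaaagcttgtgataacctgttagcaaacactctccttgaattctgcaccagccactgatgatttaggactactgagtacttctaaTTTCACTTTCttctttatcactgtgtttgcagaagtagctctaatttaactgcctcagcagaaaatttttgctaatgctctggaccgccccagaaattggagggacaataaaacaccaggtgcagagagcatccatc
Gbp5 and Gbp7 each held 2 gamma-activated sites, against 7.01% of windows with at least 1, whereas the windows of Gbp2, Gbp2b and Gbp3 held 0. In Gbp3, 2 overlapping matches to the response element core form 1 run of capitals. TGTGGT or TGCGGT, letters bound by RUNX factors, occurred once in the window of Gbp2 and in 0 of the other windows, against 18.6% of all windows. Such matches describe letters only.

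The summed reads of the 9 members were 2.68 times as high in the libraries labelled Runx1 KO. The sum was 5539, 6108 and 5039 normalised reads in WT replicates 1 to 3 and 15239, 18260.2 and 11301 in Runx1 KO replicates 1 to 3. The means were 5562 ± 535 and 14933 ± 3490 (SD, n = 3), and the groups did not overlap. Of the 9 members, 7 rose, 2 did not pass and 0 fell by limma (adjusted p under 0.05), where 10.6% of all genes rose. At an unadjusted p under 0.05, 8 were higher and 0 lower; edgeR called 7 and DESeq2 8, all higher. The median log2 change of the 9 was 1.28, against -0.0042 over all genes tested. In 8 of the 9 every library labelled Runx1 KO was above every WT library, as in 21.4% of all genes. The RNA came from whole sorted populations, in which more cells of a type and more RNA per cell cannot be told apart.

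**Figure D1:**
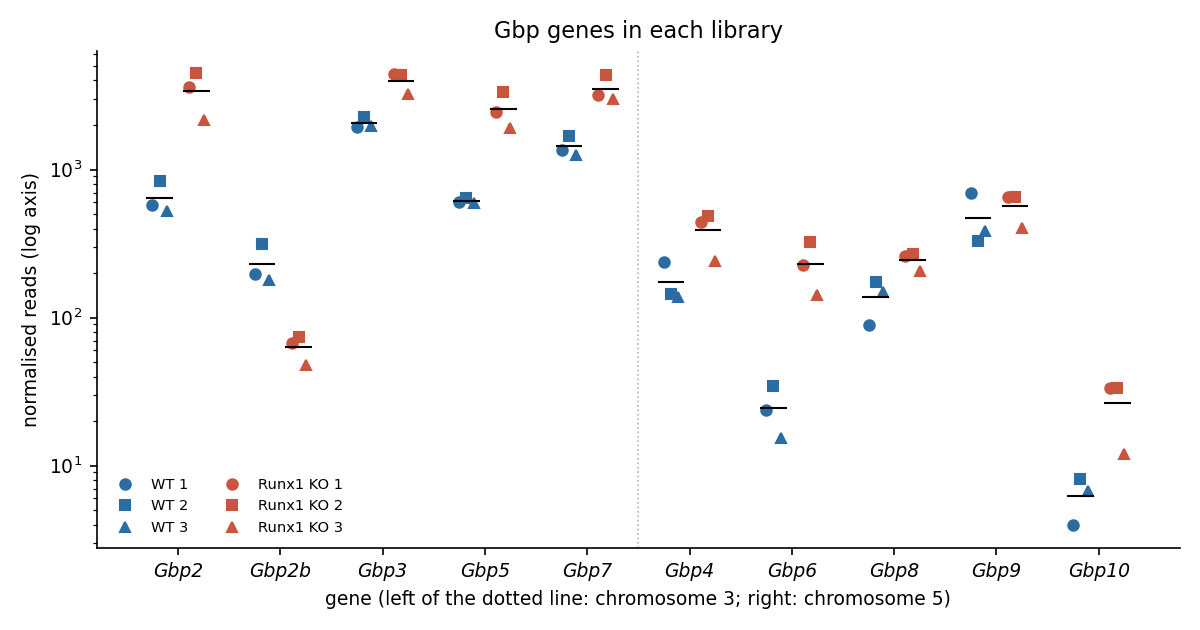
Normalised reads (log axis) of the 9 Gbp members and Gbp2b in each of the 6 libraries, with a symbol for each replicate and a black line at the group mean. The Runx1 KO libraries lie above the WT libraries in 8 of the 9 members, overlap them in Gbp9 and lie below them in Gbp2b.

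Gbp2, whose protein is anchored to membranes by a lipid group and is recruited to parasite vacuoles, was among the members that rose most. It had 578, 840 and 525 normalised reads in the WT libraries and 3590, 4471 and 2163 in those labelled Runx1 KO. All 3 of the latter lay far above the WT libraries, although they differed among themselves, with replicate 3 the lowest. The log2 change was 2.36 (SE 0.28), a ratio of means of 5.26, with a limma adjusted p of 0.00327. The gene (ENSMUSG00000028270) spans chr3:142620602-142638008 on the plus strand (GENCODE M21).

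Gbp5, a GBP linked to inflammasome activation, had the lowest p of the family. Its normalised reads were 601, 639 and 595 in WT and 2434, 3353 and 1914 under the label Runx1 KO. The 3 WT libraries were nearly equal, and the groups were well apart. Its log2 change was 2.03 (SE 0.19), with a limma adjusted p of 0.00153. The gene (ENSMUSG00000105504) spans chr3:142493978-142522344.

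Gbp7, a GBP linked to oxidative and autophagic defence, had 1357, 1688 and 1264 normalised reads in WT and 3210, 4349 and 2984 in the other group. It rose by a log2 change of 1.28 (SE 0.16; limma adjusted p 0.00378), and the groups did not overlap. Of the 9 genes its profile over the 6 libraries was nearest to that of the summed reads, with a root mean square difference of 0.12 on the log2 scale. Gbp7 (ENSMUSG00000040253) lies at chr3:142530342-142550149.

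Gbp3 had the most reads in WT but rose by the smallest amount among the members that passed. It had 1952, 2253 and 1959 normalised reads in WT and 4391, 4327 and 3231 in the libraries labelled Runx1 KO. The groups were apart, with Runx1 KO replicate 3 nearest to WT. Its log2 change was 0.94 (SE 0.13), with a limma adjusted p of 0.00455. Gbp3 (ENSMUSG00000028268) lies at chr3:142560026-142573209.

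The 5 members on chromosome 5, all on the minus strand, differed widely in their changes. Gbp6 (ENSMUSG00000104713; chr5:105270702-105293698) showed the largest change of the family. It had 23.7, 34.3 and 15.3 normalised reads in WT and 226, 322 and 143 under the label Runx1 KO, a log2 change of 3.18 (SE 0.38; limma adjusted p 0.00325). Every library of the second group was at least 4 times any WT library.

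Gbp10 (ENSMUSG00000105096; chr5:105215699-105239533) was close to the floor of 3 reads in WT. It had 3.96, 8.07 and 6.71 normalised reads there and 33.5, 33.7 and 11.9 in the libraries labelled Runx1 KO, which is 4 to 8 recovered reads against 12 to 34. Its log2 change was 1.83 (SE 0.47; limma adjusted p 0.035). Replicate 3 of the second group was close to the WT range. The call was lost in 5 of the 6 fits that left out 1 library and was kept without Runx1 KO replicate 3; the adjusted p then ran from 0.0188 to 0.122.

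Gbp4 (ENSMUSG00000079363; chr5:105115767-105139586) had 237, 145 and 138 normalised reads in WT and 439, 485 and 243 in the other group. The highest WT library and the lowest library labelled Runx1 KO were almost equal. Its log2 change of 1.14 (SE 0.31) passed with a limma adjusted p of 0.0416. It did not pass without WT replicate 2, WT replicate 3, Runx1 KO replicate 1 or Runx1 KO replicate 2, with adjusted p values up to 0.139.

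Gbp8 and Gbp9 did not pass. Gbp8 (ENSMUSG00000034438; chr5:105014150-105139540) had 89.04, 174 and 149 normalised reads in WT and 262, 268 and 207 in the libraries labelled Runx1 KO, without overlap. The limma adjusted p was 0.0502 at a log2 difference of 0.88 (95% interval 0.27 to 1.49), and it passed in 6 of the 10 settings that kept all libraries, with DESeq2 for example at 0.0167, and without WT replicate 2 at 0.0449. Gbp9 (ENSMUSG00000029298; chr5:105077630-105139539) had 696, 327 and 388 normalised reads in WT and 653, 653 and 404 in the other group. The ranges overlapped, with WT replicate 1 the highest of all 6 libraries. The log2 difference was 0.32 (limma adjusted p 0.49), with a 95% interval from -0.41 to 1.05 that includes changes as large as that of Gbp3.

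**Figure D2:**
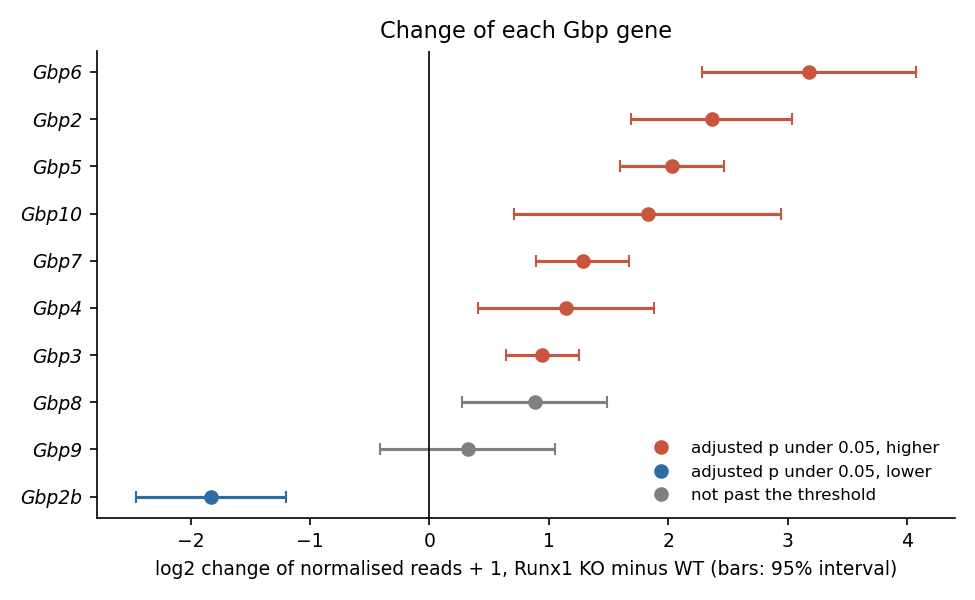
Log2 change of each Gbp gene from WT to Runx1 KO, on the log2(normalised reads + 1) scale, with 95% intervals from limma as bars. The changes run from 0.32 in Gbp9 to 3.18 in Gbp6, and that of Gbp2b is -1.83.

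One gene of the family moved the other way. Gbp2b (ENSMUSG00000040264; chr3:142594847-142619179), once named Gbp1, lies between Gbp3 and Gbp2 on the same strand and is not among the 9 members. It had 197, 314 and 178 normalised reads in WT and 66.9, 74.3 and 47.7 in the libraries labelled Runx1 KO. All 3 of the latter were below every WT library, and the mean of WT was 3.65 times theirs. Its log2 change was -1.83 (SE 0.27; limma adjusted p 0.0057), and it stayed past the threshold in all 10 settings with all libraries and all 6 with 1 left out. For each read of Gbp2 there were 0.341, 0.374 and 0.340 reads of Gbp2b in WT, but 0.0186, 0.0166 and 0.0221 under the label Runx1 KO. These ratios do not depend on how libraries are scaled.

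Further ratios within libraries were compared, chosen like the first after the values were seen. Gbp2b per read of Gbp3 went from 0.110 ± 0.0255 to 0.0157 ± 0.00127. Gbp2 per read of Gbp3 went from 0.312 ± 0.0542 to 0.840 ± 0.183. Gbp6 per read of Gbp9 went from 0.0595 ± 0.0394 to 0.398 ± 0.0825 (SD, n = 3 in each). Gbp10 per read of Gbp6, the last, went from 0.280 ± 0.141 to 0.112 ± 0.0330, with only 4 to 8 recovered reads of Gbp10 in WT. In each of the 5 ratios compared the groups did not overlap. An exact two-sided permutation test gave p = 0.1 for each, also after adjustment over the 5, which is the smallest p that 3 libraries against 3 allow. That p follows from the lack of overlap in ratios chosen after they were seen, so it adds no support.

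Near-identical copies limit how reads are assigned, and the family differs widely in this respect. Of the 50-base words in the GENCODE M21 transcripts of Gbp2, Gbp2b, Gbp3 and Gbp5, between 1.44% and 3.75% also occurred in another gene, and for Gbp2b it was 1.84%, all shared with Gbp2. For Gbp7 it was 12.7%, of which most was shared with Gm43802, a processed pseudogene inside it. Gbp4, Gbp9 and Gbp8 shared 7.78%, 8.05% and 18.1%. Gbp6 and Gbp10 shared 70.7% and 84.1%, mainly with each other and with Gm43302, a gene model that spans both loci and was not analysed here. Gm43302 also overlaps 29.0% of the exon bases of Gbp6 and 46.3% of those of Gbp10 by position. The read length and the treatment of reads with several matches are not given in the sources used here, so the values of Gbp6 and Gbp10 are uncertain. Without Gbp6 and Gbp10, the members past the threshold were Gbp2, Gbp3, Gbp4, Gbp5 and Gbp7.

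**Figure D3:**
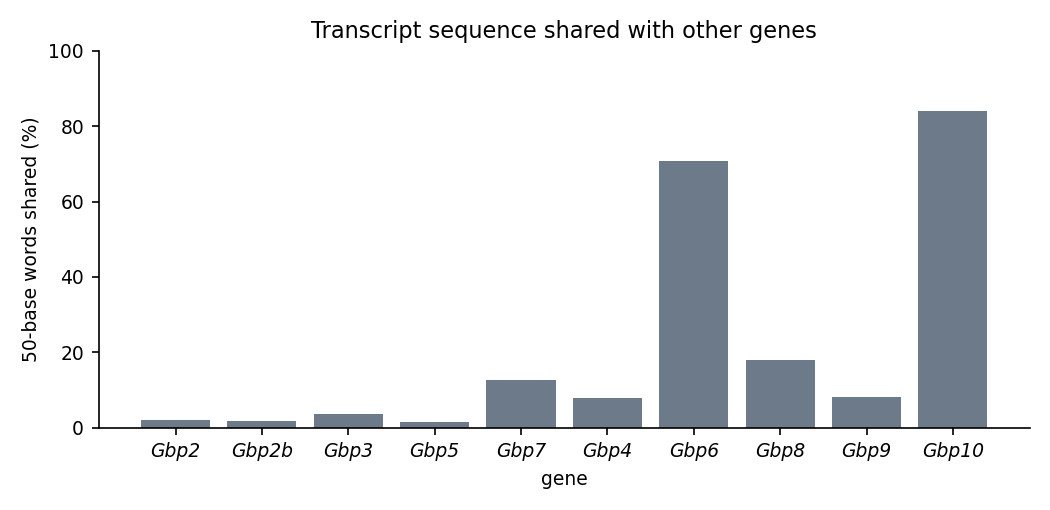
Share of all distinct 50-base words of each gene's transcripts (%) that also occur in a transcript of another gene. Gbp6 and Gbp10 reach 70.7% and 84.1%, whereas Gbp2, Gbp2b, Gbp3 and Gbp5 stay at or below 3.75%.

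Levels were compared between genes only per length, as normalised reads per kilobase of all annotated exons. In WT, Gbp3 was highest, with a mean of 629 (598 to 690 over the libraries). Gbp2 and Gbp7 followed at 257 and 256, and their ranges overlapped. Gbp5 at 92.2, Gbp9 at 90.9 and Gbp2b at 81.4 overlapped as well, as did Gbp8 at 39.8 and Gbp4 at 23.2. Gbp6 at 4.11 (2.58 to 5.76) followed without overlap. Gbp10 at 1.61 (1.02 to 2.08) and the pseudogene Gbp11 at 1.11 (0.36 to 1.84) were lowest, with overlapping ranges. Under the label Runx1 KO, Gbp2 was first at 1354.5 (860 to 1777) and Gbp3 next at 1220.0 (990 to 1345), with overlapping ranges. Gbp7 at 626, Gbp5 at 387 and Gbp9 at 110 followed without overlap. Gbp8 at 71.3 and Gbp4 at 51.9, then Gbp4 and Gbp6 at 38.7, and then Gbp6 and Gbp2b at 22.3 overlapped as neighbours. Gbp10 at 6.81 (3.08 to 8.70) and Gbp11 at 3.73 (2.33 to 6.26) were again lowest and overlapped.

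The make-up of the summed reads differed between the groups. Gbp3 made up 37.0% ± 1.82 of the sum in WT and 27.0% ± 2.89 in the libraries labelled Runx1 KO, while Gbp2 made up 11.5% ± 1.92 and 22.4% ± 2.86 (SD, n = 3). Gbp5 made up 11.04% ± 0.691 and 17.1% ± 1.20. The groups did not overlap in these 3 shares. The share of Gbp7, at 25.7% ± 1.67 and 23.8% ± 2.67, did overlap. The 4 genes on chromosome 3 supplied 85.3% ± 3.92 of the sum in WT and 90.3% ± 0.833 in the other group.

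**Figure D4:**
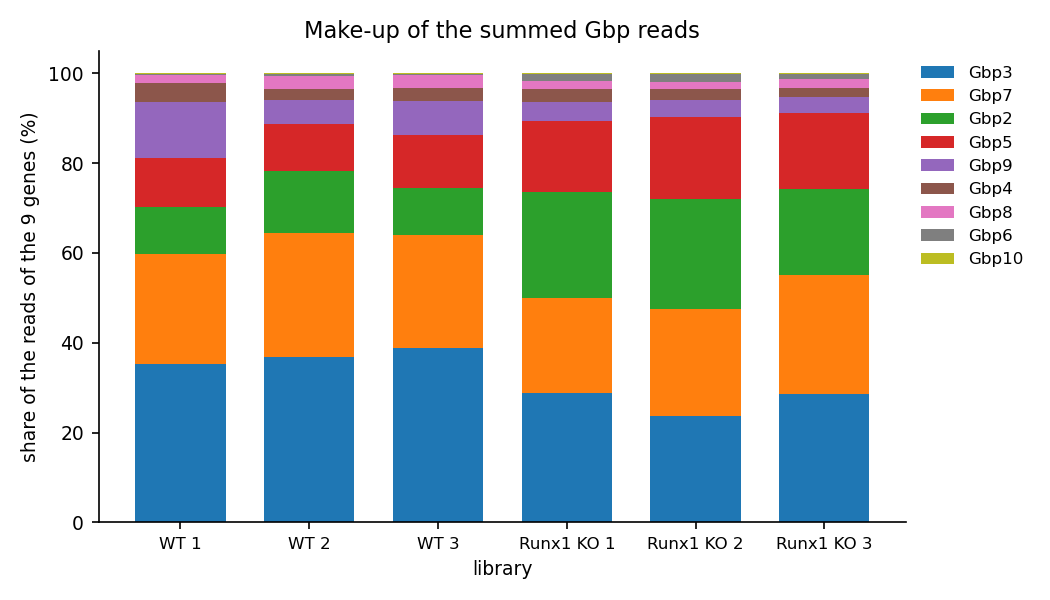
Share (%) of each of the 9 members in their summed reads, as stacked bars for the 6 libraries. The share of Gbp3 is 35.2% to 38.9% in WT and 23.7% to 28.8% in Runx1 KO, and that of Gbp2 is 10.4% to 13.7% and 19.1% to 24.5%.

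The signals upstream of the GBP genes were examined with lists chosen for their roles. Ifng, the gene of interferon-gamma, was scarce, with 47.5, 17.2 and 13.4 normalised reads in WT and 17.8, 1.98 and 0.995 in the libraries labelled Runx1 KO. Its log2 difference was -2.28 (limma adjusted p 0.108, 95% interval -4.37 to -0.18). RNA of the sorted fraction does not measure interferon made by other cells, and whether interferon reached these cells was not tested. Without Runx1 KO replicate 1 the adjusted p of Ifng was 0.013 and with a replicate block 0.0154, so that it then passed as lower. Ifnb1 had at most 3 recovered reads in any library, at the floor of 3 reads, and was not tested. Of the 8 interferon genes listed, only these 2 had values analysed here; 0 were called by limma, edgeR or DESeq2, and 1 (Ifng) had an unadjusted limma p under 0.05.

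Of 15 receptor, kinase, transcription factor and feedback genes of interferon signalling, 8 rose, 7 did not pass and 0 fell by limma (0 lower at an unadjusted p under 0.05, and 0 in edgeR or DESeq2), with a median log2 change of 0.27. Among all genes tested, 10.6% rose and 11.3% fell by limma. Stat2 and Irf9, which act in the type I interferon pathway, rose by 0.51 and 0.65 on the log2 scale. Irf1 had 2650, 2496 and 2145 normalised reads in WT and 4119, 4137 and 2885 in the libraries labelled Runx1 KO, where replicate 3 came near the WT range. Its log2 change was 0.60 (limma adjusted p 0.0342), and it was not past the threshold without WT replicate 2, WT replicate 3, Runx1 KO replicate 1 or Runx1 KO replicate 2.

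Usp18, a feedback inhibitor of the type I receptor, rose by a log2 change of 1.10 (SE 0.15; limma adjusted p 0.00429). The receptor genes Ifngr1 and Ifnar1 rose by 0.27 and 0.44, and Jak2 rose as well; Ifngr1 did not pass without WT replicate 1 or Runx1 KO replicate 2 (adjusted p 0.0532 and 0.0833). Ifngr2, Ifnar2, Irf8 and the inhibitor Socs1 did not pass, with log2 differences of -0.14, 0.18, -0.28 and 0.43. Irf8 passed as lower without Runx1 KO replicate 1 (limma adjusted p 0.0173), and Ifnar2 as higher with library totals (0.0351).

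The IRG genes, whose products act with GBPs on vacuoles, had the largest median rise of the pathway lists. Of 13 measured, 10 rose, 3 did not pass and 0 fell by limma (0 lower at an unadjusted p under 0.05, and 0 in edgeR or DESeq2), with a median log2 change of 2.17. Beside this count, 10.6% of all genes tested rose and 11.3% fell by limma. Iigp1 had 118, 376 and 123 normalised reads in WT and 1665, 3060.4 and 1202 in the other group. Gm12185, Gm4951 and Tgtp1 rose by 3.65, 3.45 and 3.19 on the log2 scale, with limma adjusted p values up to 0.0038. These genes have close copies too, so their single values are uncertain.

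Antiviral genes of the type I interferon response rose in 17 of 24 cases, with a median log2 change of 0.83; 0 fell by limma, and 0 were lower at an unadjusted p under 0.05 or in edgeR or DESeq2. Ifi44, Oasl2, Ifit1 and Mx2 had the largest changes, at 2.20, 1.98, 1.93 and 1.51; Mx2 did not pass without Runx1 KO replicate 2 or 3 (limma adjusted p 0.055 and 0.0502). Of 14 interferon-gamma class genes tested out of 16, mostly of antigen presentation, 4 rose and 0 fell by limma (7 higher and 0 lower at an unadjusted p under 0.05; 4 and 5 higher in edgeR and DESeq2), with a median of 0.29. The 4 were Nlrc5 (1.47), Cxcl10 (1.13), Tap1 (0.71) and Psmb9 (0.41). Beside the 17 of 24 and the 4 of 14, 10.6% of all genes tested rose and 11.3% fell by limma. Cxcl10 was not past the threshold without WT replicate 2, WT replicate 3, Runx1 KO replicate 1 or Runx1 KO replicate 2, nor Psmb9 without WT replicate 1, WT replicate 3 or Runx1 KO replicate 2.

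Genes that bring GBPs to their targets were called in both directions, and those that act after them in neither. Over all genes tested, 10.6% were called higher and 11.3% lower by limma. The first list held 12 genes, of the ubiquitin-like conjugation machinery and of ubiquitin ligases. Of these, 2 rose (Trim21 by 0.55, and Gabarapl1) and 4 fell, namely Atg7 by 0.56, Atg3 by 0.39, Gabarap by 0.36 and Atg5. Atg7, Atg3 and Gabarap did not pass without Runx1 KO replicate 2 or without Runx1 KO replicate 3, nor Atg3 and Gabarap without WT replicate 2, nor Gabarap without WT replicate 1. Of 8 inflammasome genes, Aim2, Casp1, Casp4, Gsdmd, Nlrp3, Pycard, Il1b and Il18, 0 passed in limma, edgeR or DESeq2, and 2 were lower at an unadjusted p under 0.05.

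The libraries of a group also differed among themselves, and the members followed a shared order. Runx1 KO replicate 3 was the lowest of its group in all 9 members, whereas it was lowest in 35.5% of all genes tested. WT replicate 2 was the highest WT library in 7 of the 9 members, in 10 of 13 IRG genes and in 10 of 14 interferon-gamma class genes, but in 2 of 24 type I genes and in 35.1% of all genes. WT replicate 1 was instead the highest in 20 of the 24 type I genes, and in Gbp4 and Gbp9, against 36.7% of all genes. Members of a list share libraries, so these counts are descriptions of the libraries.

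**Figure D5:**
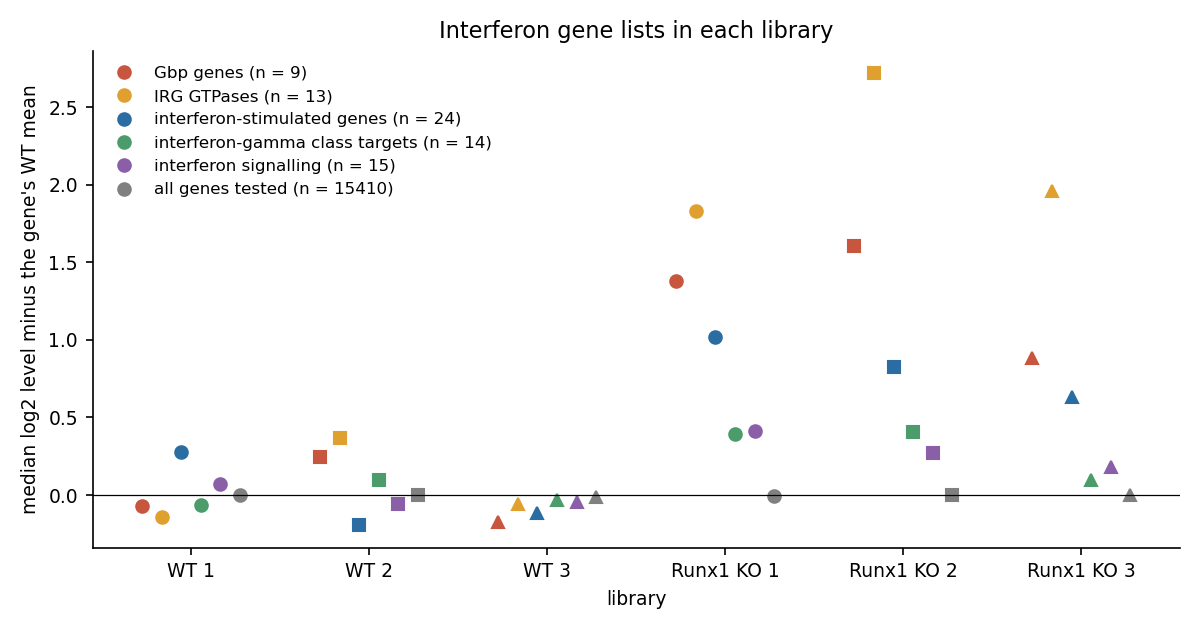
Median over each gene list of the log2 level minus the gene's WT mean, in each of the 6 libraries. The 9 Gbp members lie at 1.38, 1.61 and 0.88 in the Runx1 KO libraries and the IRG GTPases at 1.83, 2.72 and 1.96, while all genes tested stay near 0.

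Genes whose profile over the 6 libraries was most like that of the summed GBP reads were sought among all tested genes outside the family, by the root mean square difference of mean-centred log2 values. The nearest 5, at differences of 0.09 to 0.14, were Nlrc5, an activator of class I antigen presentation genes, Kalrn, Gm13091, the class I gene H2-Q7 and Gm42984. H2-Q7 had 1821, 2338 and 1971 normalised reads in WT and 5934, 6630.2 and 5083 in the libraries labelled Runx1 KO. Words that H2-Q7 shares with other genes were not counted, so its single value may also be uncertain. Gm13091 and Gm42984 had few reads, with means of 73.5 and 24.2 normalised reads in the higher group. Their annotated exons are short, at 0.469 and 0.987 kilobases. Gm42984 did not pass in DESeq2 (adjusted p 0.0896) or in 5 of the 6 fits without 1 library, all but that without Runx1 KO replicate 3.

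Markers of most other cell types were lower in the libraries labelled Runx1 KO or did not pass, and their part in the result was not tested. The counts below stand beside 10.6% of all genes tested called higher and 11.3% called lower by limma. Of 10 monocyte and macrophage markers, 4 fell and 0 rose, and their sum was 40774 to 44729 normalised reads in WT and 26628 to 33296 in the libraries labelled Runx1 KO. Of 12 T and NK cell markers, 1 fell and 0 rose, with sums of 6571 to 7589 and of 4498 to 5027. Most of these reads came from Nkg7, the marker that fell, at 5449.95 to 6523 and 3750.1 to 4463 normalised reads, and the groups overlapped in each of the other 11. B-cell markers fell in 7 of 8 cases (sums of 6886 to 27715 and of 1034 to 2604) and neutrophil markers in 6 of 8 (150862 to 227826 and 25965 to 76863). Of 8 dendritic cell markers, 0 passed in limma or edgeR (1 higher and 3 lower at an unadjusted p under 0.05, 1 higher and 1 lower in DESeq2), with sums of 5112 to 5224 and of 4370.0 to 6006. Most of these reads came from Flt3, also a progenitor marker, and Bst2, also in the type I list, so the sum says little about the others. In 3 dendritic markers every library labelled Runx1 KO was below every WT library, and in 1 above. Siglech, 1 of the 3, had 532, 398 and 562 normalised reads in WT and 331, 27.7 and 17.9 in the other group. Of 8 erythroid markers 3 fell (sums of 23495 to 35496 and of 16761 to 25273), and of 6 stromal and endothelial markers tested 3 fell and 1 rose (3980 to 4642 and 3249 to 4475). Most of the stromal and endothelial reads came from Pecam1, at 2626 to 3525 and 2687 to 3779 normalised reads, where the groups overlapped. In the monocyte, T and NK, B-cell, neutrophil and erythroid lists 0 were called higher by limma or edgeR; at an unadjusted p under 0.05 only 2 erythroid markers were higher, and DESeq2 called 2 erythroid markers higher. None of the markers with values was at 0 in any library; Col3a1, a stromal marker, was not analysed here. WT replicate 2, the WT library highest in most GBP genes, was also the highest in all 8 erythroid markers, and WT replicate 1 in all 8 B-cell markers.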

How the data were processed

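The 6 deposited tables give 1 value per Ensembl gene. Per the submitters' processing notes, HISAT2, HTSeq 0.9.1 and mm10/GRCm38 were used; annotation, strand setting and normalization are not given in the sources used here. From the values, the deposited signal is gene read counts divided by a library size factor: 100% of values were whole multiples, within 0.001, of the smallest positive value of their file, and its reciprocal (0.956 to 1.04) equalled the median-of-ratios factor of DESeq2. These multiples, the recovered reads, totalled 23297526 to 26793380 per library. Genes under 10 reads in all were not analysed here. Floors (3 reads) cover counting error only, since reads are not independent molecules.

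Symbols came from a table of Ensembl identifiers (20077 of 20097 matched), positions from GENCODE M21 (GRCm38) and upstream sequences from RefSeq (GRCm38.p6). The main test was limma 3.58.1 (lmFit, eBayes with trend) on log2(normalised reads + 1), group as the only term, two-sided, Benjamini-Hochberg over 15410 genes that passed filterByExpr (minimum count 10, total 15). This scale understates the change of low genes. The fit was tested on simulated data. Alternatives were edgeR 4.0.16 and DESeq2 1.42.0 on recovered reads, pseudocounts of 0.5 and 5, TMM and library-total scaling, the low-count filter dropped or set to a mean CPM of 1, a replicate block, and leaving out each library. With 3 libraries against 3, an exact permutation test cannot go below 0.1.

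The members, lists and named-gene rule were chosen with earlier results of these data known. Named were all Gbp genes, Runx1, interferon signalling genes (1 is not reported here), up to 4 called genes with the largest change per list, and the 5 genes nearest in profile. Ratios between members, and Nkg7, Flt3, Bst2, Siglech and Pecam1 among the markers, were chosen after their values were seen.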

Additional observations from a re-analysis of the deposited data

How the results depend on the processing

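Over the 10 settings that kept all libraries, 7 or 8 of the 9 members were called, all higher; Gbp2, Gbp3, Gbp4, Gbp5, Gbp6 and Gbp7 were among them in each, Gbp8 in 6, and Gbp10 in all but the filter at a mean CPM of 1, which removed it. The summed reads were 2.72 times as high with TMM and 2.84 times with library totals. Fits without 1 library, with 2 left in its group, gave 5 to 7 members, a sum ratio from 2.39 to 3.01, 1349 to 3551 genes, 29 to 43 interferon list genes (45 with all libraries) and log2 changes of Runx1 from 0.97 to 1.13. The lowest count of genes, and of list genes, came without Runx1 KO replicate 2; the cause was not tested. Gbp2, Gbp3, Gbp5, Gbp6, Gbp7 and Gbp2b stayed past the threshold in all 6 of these fits. No result for a named gene reversed its direction: of 375 values with all libraries, 366 stayed on their side of the threshold, 1 was weaker and 8 stronger, and of 252 with 1 left out, 211 stayed, 38 were weaker and 3 stronger. The replicate numbers are shared by the groups. Over all genes tested, deviations of same-numbered libraries correlated at 0.287, 0.129 and -0.0104, so the main test did not take the numbers as pairs. With the replicate block 8 members (Gbp8 added), 3843 genes and 52 list genes were called. The SE was then smaller in all 9 members, from 0.164 to 0.060 in Gbp7 but only from 0.474 to 0.466 in Gbp10. Depth limits Gbp10, Gbp11, Ifng and Ifnb1, which had few reads.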

Other observations

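Gbp2b fell while Gbp2, Gbp5, Gbp6 and Gbp7 rose, but inside each group the 5 genes ranked the libraries alike. Its neighbour Gbp3 did not share this ranking, with WT replicate 1 lowest and Runx1 KO replicate 1 highest of their groups. Nor did Gbp4 and Gbp9, with WT replicate 1 highest in WT, or Gbp8 and Gbp10, with WT replicate 1 lowest. Gbp2b, Gbp2, Gbp5, Gbp6 and Gbp7 all had WT replicate 2 highest and WT replicate 3 lowest. In the other group they had Runx1 KO replicate 2 highest and Runx1 KO replicate 3 lowest. For Gbp2b these values were 314 and 178 normalised reads in WT and 74.3 and 47.7 under the label Runx1 KO. With 3 libraries in a group this ranking carries no test.

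Gbp11, annotated as a polymorphic pseudogene on chromosome 5, had too few reads to be tested. It had 5, 3 and 1 recovered reads in WT replicates 1 to 3 and 6, 17 and 7 in Runx1 KO replicates 1 to 3, and 19.2% of its 50-base words also occurred in other genes.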
